A study of Mus musculus with 6 samples.

Results

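The genes described here are 45 protein-coding mouse genes of NF-κB signalling, cytokine signalling, the interferon response and antigen presentation by major histocompatibility complex (MHC) class I, out of 21887 protein-coding genes. They belong together by function, were proposed with earlier results of these lists known, and were all found in the gene table of mouse build GRCm38, the build that mm10 names. The question was where tagged OTUD3, a deubiquitinase that removes ubiquitin from other proteins, was enriched at these genes in mouse fat. Chromatin immunoprecipitation sequencing (ChIP-seq) was done on epididymal adipose tissue 4 weeks after mice received Flag-tagged Otud3 from an adeno-associated virus (AAV2-Otud3-Flag) by intraperitoneal injection. The 3 libraries used were precipitated with an anti-Flag antibody and carry the numbers 1, 3 and 4, and the 3 input libraries of injected mice were not analysed here. Every library came from tissue given the vector, so no library without tagged OTUD3 enters the comparisons. The labels name no strain, age or sex, no promoter in the vector and no number of animals behind a library. Spread between libraries may thus be technical. The labels name the source as adipocytes, while the extraction text names whole fat tissue, which also holds macrophages, lymphocytes, endothelial and stromal cells. A peak list carries no expression values, so the cells behind a peak cannot be told apart.

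NF-κB is a family of dimeric transcription factors held in the cytoplasm by IκB proteins until the IKK kinases, recruited through ubiquitin chains built by TRAF proteins, phosphorylate IκB and mark it for destruction. Cytokines such as TNF and interleukin-1 start that pathway, while interleukin-6 and the interferons act through JAK kinases and STAT factors, with SOCS proteins as feedback inhibitors. Interferon regulatory factors (IRFs) and STATs then switch on antiviral genes and the class I presentation machinery. In adipose tissue these pathways are known from obesity, where TNF and the chemokine CCL2 accompany the entry of macrophages. Ubiquitination and its removal govern several steps of NF-κB signalling.

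The peaks behind every statement below were weak. The lists held 11871, 6531 and 13496 distinct intervals in replicates 1, 3 and 4, and the median interval had a fold enrichment of 3.20, 3.00 and 3.02 from 4, 6 and 5 DNA fragments at its summit. The fold is the fragment pileup over the local background as the authors' peak caller gives it, and the fragment numbers were worked out from the fold and p-value of each peak. Since the labels mention single-end as well as paired-end reads, a fragment here may be a sequenced pair or a single read extended by the caller. Background at the sparsest peaks was 0.407, 1.17 and 0.839 fragments, so replicate 3 had the most coverage behind a peak. Only 0.337%, 0.398% and 0.496% of the intervals had a q below 0.05, q being the p-value adjusted by the caller over its list. A summit of 4 fragments has an exact 95% Poisson interval of 1.09 to 10.2 fragments, and one of 9 fragments an interval of 4.12 to 17.1, both for counting error only.

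A summit lay inside the gene or within 5 kb of it for 19 of the 45 genes in replicate 1, against 25.2% of all protein-coding genes (42.2% of the members). Replicate 3 had 11 members with a summit (24.4%, against 15.8% of all genes), and replicate 4 had 14 (31.1%, against 23.8%). At least 1 library had a summit for 29 of the 45 members (64.4%, against 44.2% of all genes), and all 3 libraries had one for 2 members, Rela and Jak1 (4.44%, against 4.4% of all genes). The share of members was above that of all genes in each library taken alone and close to it for the requirement of all 3 libraries. Of the other members, 11 had a summit in 2 libraries (24.4%, against 11.8% of all genes) and 16 in 1 library (35.6%, against 27.9%). Because of how the genes were proposed, the counts describe the members and were not tested. Rela, Ifitm3 and H2-K1 had already been singled out for their peaks, and without these 3 the counts were 17, 8 and 12 of 42 genes.

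The share of genes with a summit climbed with gene length, so each member was set beside the 500 genes nearest to it in length. The members were shorter than most genes, with a median of 11.4 kb against 17.2 kb, from 1.16 kb (Ifitm3) to 113.0 kb (Jak1). Genes of like length gave 10.1, 6.14 and 8.93 genes with a summit where 19, 11 and 14 members had one, which is 1.88, 1.79 and 1.57 times as many in replicates 1, 3 and 4. These ratios include Rela, Ifitm3 and H2-K1. Without them, genes of like length gave 9.79, 5.96 and 8.67 where 17, 8 and 12 of 42 members had a summit. For a summit in all 3 libraries, genes of like length gave 0.996 where 2 members had one. Without Rela, Ifitm3 and H2-K1 they gave 0.992 where 1 member had one. The excess was greatest among the shortest members. Of the 12 members up to 5 kb long, 7, 5 and 3 had a summit, or 58.3%, 41.7% and 25.0%, where 8.03%, 4.27% and 6.04% of all genes of that length did. These 12 include Ifitm3 and H2-K1, already singled out for their peaks. Ifitm3 had a summit in replicates 1 and 3, and H2-K1 in replicates 3 and 4. The excess at this length is thus not independent of how the members were proposed. Between 20 and 60 kb, 4, 1 and 4 of 13 members had a summit, or 30.8%, 7.69% and 30.8%, beside 27.8%, 16.6% and 25.7% of all such genes. Per megabase of gene and flank, members, with Rela, Ifitm3 and H2-K1 included, held 18.9, 8.53 and 10.4 summits and all genes 6.02, 3.39 and 6.26. These densities set the members beside genes of every length and are not matched for length.

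**Figure D1:**
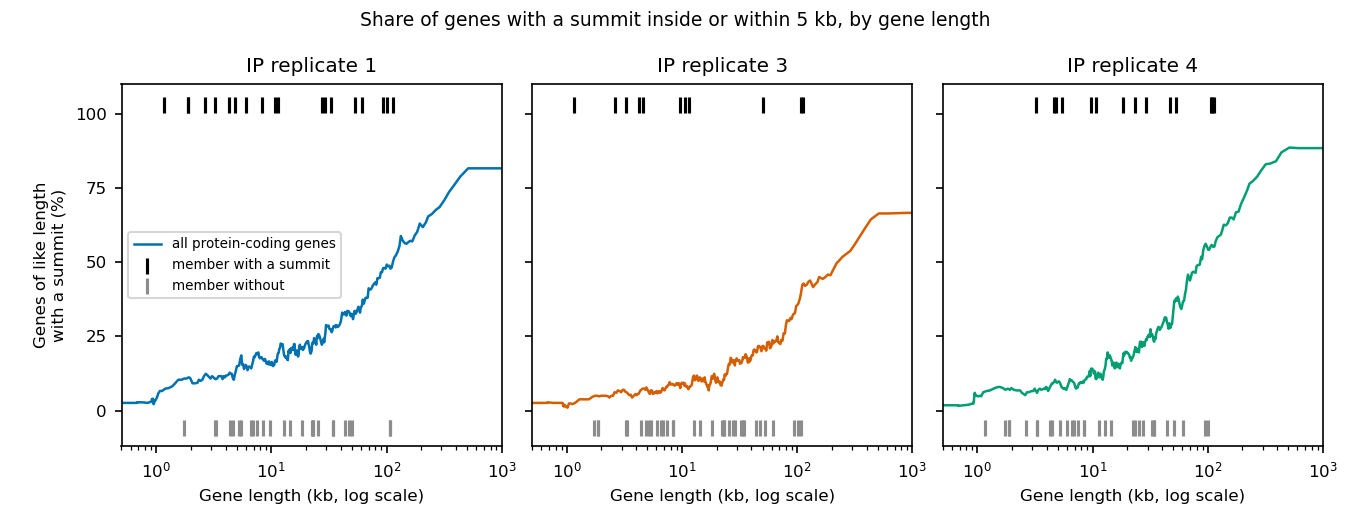
Share of protein-coding genes with a summit inside the gene or within 5 kb (percent, vertical axis) against gene length (kb, log scale), 1 panel for each anti-Flag library. The line is the share among the 500 genes nearest in length, and ticks at the top and bottom mark the 45 members with and without a summit. The share climbs with length in every library, and short members with a summit are present in all 3 panels.

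Close to gene ends the members' share was several times that of all genes. A summit within 1 kb of either annotated end was found for 10 of 45 members in replicate 1 (22.2%, against 3.49% of all genes), 4 in replicate 3 (8.89%, against 1.33%) and 3 in replicate 4 (6.67%, against 1.97%). Genes of like length gave 1.67, 0.622 and 0.924. In any library, 14 members had such a summit (31.1%, against 6.6% of all genes), and 3 of them, Ifitm2, Ifitm3 and H2-K1, had one in 2 libraries (6.67%, against 0.192% of all genes), and without Rela, Ifitm3 and H2-K1 that is 1 of 42, Ifitm2. Without Rela, Ifitm3 and H2-K1 the counts at gene ends were 8, 2 and 2 of 42, where genes of like length gave 1.60, 0.590 and 0.868. The count therefore rested on replicate 1 for most members, and replicates 3 and 4 gave few.

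The peaks at members had folds close to the medians of their lists. The 62 distinct summits at members had a median fold of 3.08, 2.99 and 3.21 in replicates 1, 3 and 4, beside list medians of 3.20, 3.00 and 3.02, and folds ran from 2.43 to 4.98. Their percentile of fold within the own list had a median of 50.8 over the 3 libraries, and of 44.1, 48.1 and 60.9 in replicates 1, 3 and 4. Folds above the list median were found at 12 of 31, 7 of 14 and 13 of 17 summits, so mostly above it in replicate 4. Fragments at the summit numbered 3 to 6 in replicate 1, 5 to 8 in replicate 3 and 4 to 9 in replicate 4. A q below 0.05 was reached by 1 of the 62 summits, inside Stat3 in replicate 4. Of the peaks, 3 in replicate 1 and 1 in replicate 4 were 500 bp wide or more. The share of such wide intervals in the whole lists is not given here, so these counts describe the members alone.

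**Figure D2:**
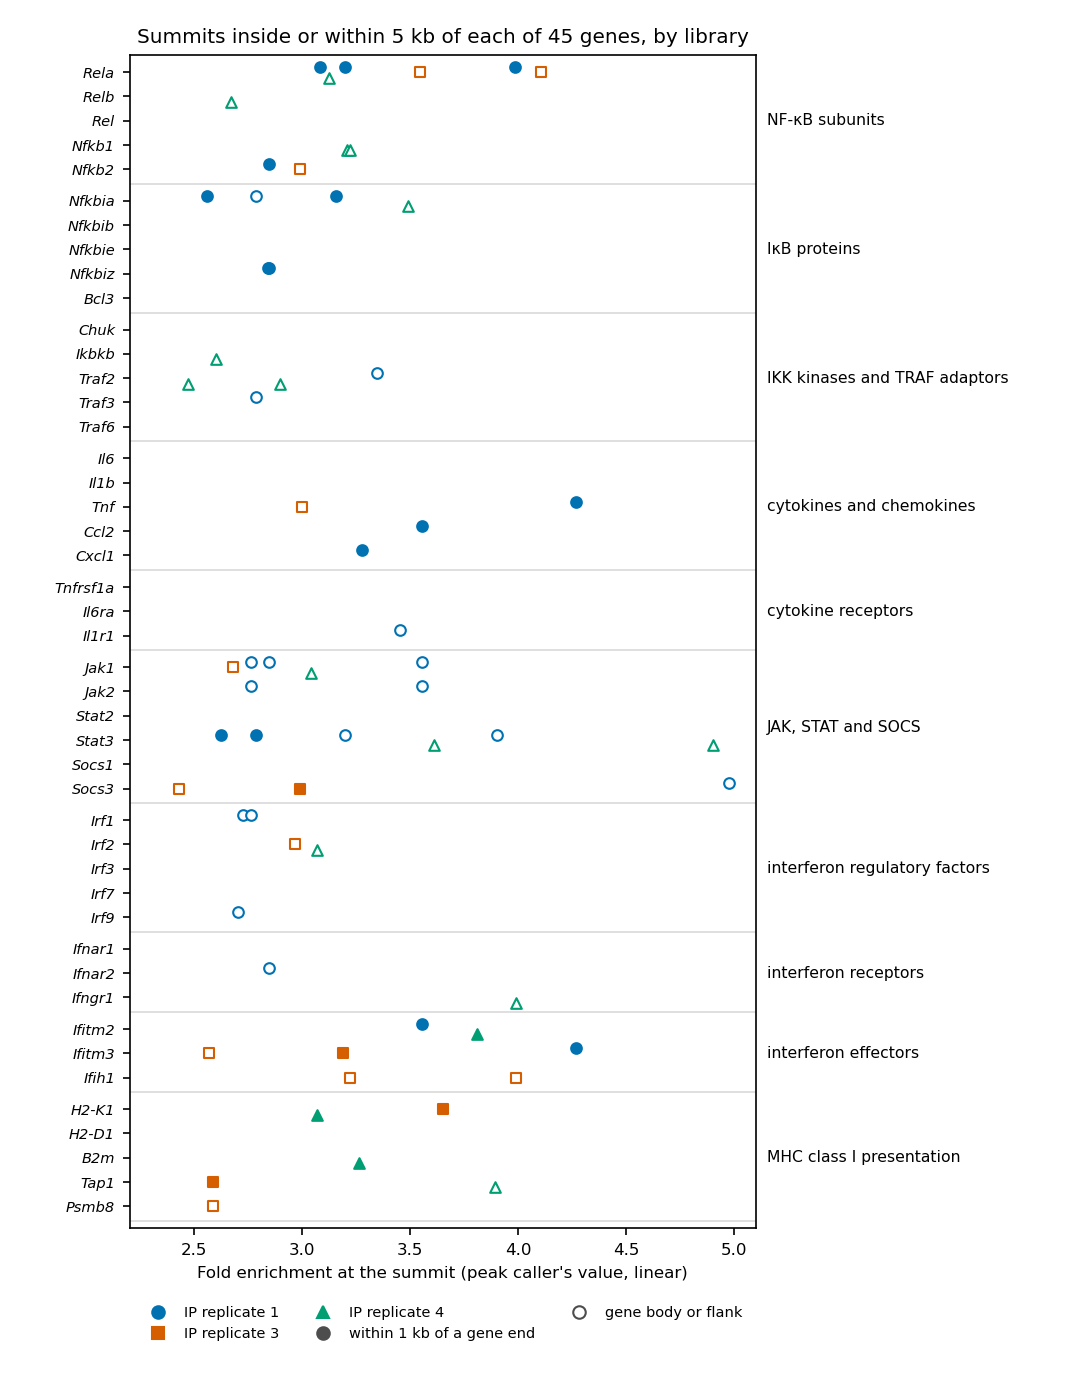
Fold enrichment at every summit (horizontal axis, linear, the peak caller's value) inside or within 5 kb of each of the 45 genes (vertical axis, grouped by role). Colour and shape give the library, and filled symbols lie within 1 kb of a gene end. In Nfkbiz an open and a filled symbol coincide at 2.84. Folds run from 2.43 to 4.98, the highest being Socs3 in replicate 1 and Stat3 in replicate 4.

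Among the 5 NF-κB subunits, 2, 2 and 3 had a summit in replicates 1, 3 and 4, where genes of like length gave 1.34, 0.838 and 1.21. Each of these counts includes Rela. Rela encodes p65, a subunit that carries a transactivation domain, and lies on chromosome 19 from 5637442 to 5648134. It held 3 summits in replicate 1 with folds of 3.08, 3.98 and 3.20 from 4, 5 and 4 fragments. Replicate 3 had 2 summits with folds of 4.10 and 3.55 from 8 and 7 fragments, and replicate 4 had 1 with a fold of 3.12 from 5 fragments. All 3 libraries thus carried Rela, and 0.4% of genes of its length had summits in all 3. Because Rela had already been singled out for its peaks, the difference from that share is no separate support. The 6 summits were spread from 2.05 kb before the listed start to 0.433 kb beyond the 3′ end. A pair of them met. Peaks of replicates 1 and 3 overlapped by 89 bp near the 3′ end, on chromosome 19 at 5646830 to 5647236, with summits 225 bp apart.

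Nfkb2, the precursor of the p52 subunit of the non-canonical pathway, had a fold of 2.84 from 3 fragments 0.75 kb beyond its 3′ end in replicate 1 and of 2.99 from 7 fragments inside the gene in replicate 3. The first of these also lay within 1 kb of the neighbouring gene Psd. Nfkb1, which encodes the p50 precursor, had 2 summits in replicate 4 deep inside its 107 kb body, with folds of 3.21 and 3.22. Relb, the partner of p52, had 1 in replicate 4 with a fold of 2.67. Rel, which encodes the c-Rel subunit of lymphoid cells, had none.

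Of the 5 IκB genes, 2 had a summit in replicate 1, 0 in replicate 3 and 1 in replicate 4, where genes of like length gave 0.902, 0.506 and 0.654. Nfkbia encodes IκBα, the inhibitor that NF-κB itself induces, and is 3.24 kb long. In replicate 1 it had summits 0.105 kb and 0.545 kb after the listed start, with folds of 2.56 and 3.16 from 3 and 4 fragments, and another of fold 2.79 beyond its 3′ end. Replicate 3 had none, and replicate 4 had 1 before the start, at 2.09 kb, with a fold of 3.49 from 6 fragments. No peaks of the 2 libraries overlapped there. Nfkbiz, the gene of an inducible nuclear IκB protein, had 2 summits in replicate 1, both of fold 2.84 from 3 fragments, 1 of them 0.031 kb from a gene end. Nfkbib, Nfkbie and Bcl3, a nuclear IκB protein that pairs with p50 and p52, had no summit in any library.

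The kinases and adaptors upstream of IκB had no summit at a gene end. Traf2, the adaptor of TNF receptors, had a fold of 3.34 in replicate 1 in its 3′ flank and folds of 2.47 and 2.89 inside the gene in replicate 4. Traf3, a brake on the non-canonical pathway, had 1 summit in replicate 1 (fold 2.79), and Ikbkb, which encodes the catalytic kinase IKKβ, had 1 in replicate 4 (fold 2.60). Chuk (IKKα) and Traf6, the adaptor of interleukin-1 and Toll-like receptors, had none. The group had 2, 0 and 2 of 5 genes with a summit, close to the 1.57, 1.01 and 1.51 that genes of like length gave.

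Among the cytokines, the summits at gene ends came from replicate 1 alone. Tnf, the prototype inflammatory cytokine of 2.64 kb on chromosome 17, had a fold of 4.27 from 5 fragments 0.648 kb after its start in replicate 1, at percentile 95.4 of that list. Replicate 3 had a summit 4.58 kb before the start with a fold of 3.00, and replicate 4 had none. Ccl2, the monocyte chemoattractant, had a fold of 3.55 in replicate 1 at 0.042 kb from a gene end, and Cxcl1, a neutrophil chemoattractant, had a fold of 3.28 at 0.122 kb from its 3′ end. The other libraries had no summit at these chemokines. Il6 and Il1b had none in any library. With 3, 1 and 0 of 5 genes, the group stood beside 0.658, 0.308 and 0.398 for genes of like length. Of the cytokine receptors, Il1r1, the signalling receptor of interleukin-1, had 1 summit inside the gene in replicate 1 (fold 3.45). Tnfrsf1a, the main TNF receptor, and Il6ra, the interleukin-6 receptor, had none. The receptors thus had 1, 0 and 0 of 3 genes with a summit, beside 1.02, 0.644 and 0.992 for genes of like length.

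The JAK, STAT and SOCS genes carried both of the highest folds. With 4, 2 and 2 of 6 genes in replicates 1, 3 and 4, the group stood beside 1.61, 1.06 and 1.62 for genes of like length. Stat3, the transcription factor of interleukin-6 and leptin signalling, spans 52.8 kb on chromosome 11 from 100886806 to 100939594. It had 4 summits in replicate 1 with folds of 2.79, 3.20, 3.90 and 2.62, none in replicate 3 and 2 in replicate 4 with folds of 4.90 and 3.61. The peak of fold 4.90, at 100903327 to 100903655 and 36.0 kb after the listed start, rested on 9 fragments, with a peak caller's q of 0.0319, and stood at percentile 99.8 of its list. Its nearest counterpart in replicate 1, of fold 3.90, did not overlap it. The summit of replicate 1 at the start of Stat3 lay 0.139 kb upstream with a fold of 2.62 from 3 fragments.

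Socs3, the feedback inhibitor that STAT3 induces, lies on chromosome 11 from 117966079 to 117970336. Replicate 1 had a summit 3.18 kb beyond its 3′ end with a fold of 4.98 from 6 fragments (q = 0.0977), at percentile 99.4 of the list. Replicate 3 had a peak wholly inside that interval, with its summit 171 bp away, and its fold of 2.43 from 6 fragments was at percentile 3.61 (q = 1.00). Replicate 3 also had a summit 0.617 kb before the 5′ end with a fold of 2.99. Replicate 4 had none. The 2 peaks thus overlapped and differed in rank within their lists. The interval of replicate 1 is 668 bp wide, where the median of that list is 245 bp.

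Jak1, the kinase shared by interferon and interleukin-6 receptors, was the only other member with summits in all 3 libraries. Its folds were 2.76, 2.84 and 3.55 in replicate 1, 2.68 in replicate 3 and 3.04 in replicate 4. All 5 lay in the gene body with no overlap between libraries. It is the longest member, and 14.4% of genes of its length had summits in all 3 libraries. Jak2, the kinase of leptin and interferon-γ receptors, had 2 summits in replicate 1 with folds of 3.55 and 2.76. Stat2 and Socs1, which act in the interferon pathway, had none.

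The interferon regulatory factors had no summit at a gene end, and 2, 1 and 1 of 5 genes had any, beside 1.08, 0.670 and 0.898 for genes of like length. Irf1, an interferon-γ-induced activator, had 2 summits in replicate 1 at 2.64 and 3.21 kb beyond its 3′ end, with folds of 2.73 and 2.76. Irf2, its antagonist, had 1 summit each in replicates 3 and 4 inside a 108 kb gene, with folds of 2.96 and 3.07. Irf9, a DNA-binding subunit of the factor that type I interferon activates, had 1 in replicate 1 before its start (fold 2.70), within 1 kb of Rnf31, which encodes the ubiquitin ligase HOIP. Irf3 and Irf7, the factors that turn on interferon genes, had none. Among interferon receptors, Ifnar2 had a fold of 2.84 in replicate 1, Ifngr1 reached a fold of 3.99 with 7 fragments in replicate 4, at percentile 95.1 of the list, and Ifnar1 had no summit.

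The interferon effectors had 2, 2 and 1 of 3 genes with a summit, beside 0.510, 0.314 and 0.522 for genes of like length. Ifitm3, already singled out for its peaks, is among those counted in replicates 1 and 3. Ifitm3, which encodes a membrane protein that blocks virus entry, is the shortest member and lies on chromosome 7 from 141009590 to 141010744. Replicate 1 had a summit 0.469 kb beyond its 3′ end with a fold of 4.27 from 5 fragments, and replicate 3 had one at 0.304 kb with a fold of 3.19 from 7 fragments. These peaks overlapped by 183 bp on chromosome 7 at 141008998 to 141009388, with summits 165 bp apart and q of 0.342 and 0.793. Replicate 3 held another summit 2.19 kb before the start (fold 2.57), and replicate 4 held none. Ifitm2, a relative of Ifitm3 on the same chromosome, had a fold of 3.55 in replicate 1 at 0.124 kb after its listed start, which lies inside the annotated gene near its 3′ end. In replicate 4 it had a fold of 3.81 at 0.668 kb before the 5′ gene end, with no overlap. Ifih1, the sensor of viral double-stranded RNA, had 2 summits in replicate 3 with folds of 3.22 and 3.99.

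For MHC class I presentation, replicate 1 had 0 of 5 genes with a summit, and replicates 3 and 4 had 3 each, where genes of like length gave 0.688, 0.344 and 0.472. Those counted in replicates 3 and 4 include H2-K1, already singled out for its peaks. H2-K1, a classical class I heavy chain gene on chromosome 17, had a fold of 3.65 from 8 fragments at 0.342 kb beyond its 3′ end in replicate 3 and of 3.07 from 5 fragments at 0.315 kb in replicate 4. The summits were 27 bp apart, the closest pair at any member, and q was 0.656 and 0.875. B2m, the light chain of class I molecules, had a fold of 3.26 from 5 fragments 0.198 kb after its start in replicate 4, also within 1 kb of Patl2. Tap1, a subunit of the peptide transporter, had a fold of 2.59 at 0.372 kb from its 3′ end in replicate 3 and of 3.89 from 7 fragments in its 5′ flank in replicate 4. The first of these summits is also the only one at Psmb8, an immunoproteasome subunit gene that lies next to Tap1, and the second lay within 1 kb of Psmb9. H2-D1, a close homologue of H2-K1, had none. Reads of H2-K1, H2-D1, Ifitm2 and Ifitm3 can be shared with near-identical family members, and the labels do not say how such reads were treated.

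**Figure D3:**
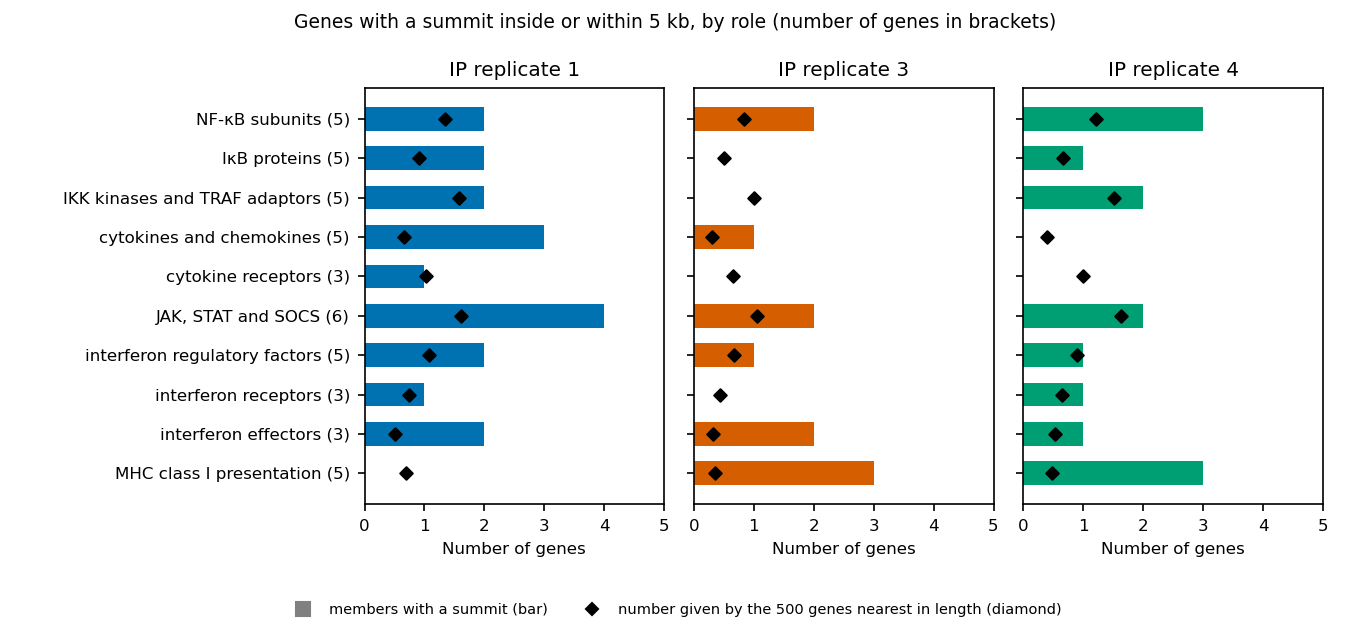
Number of members with a summit inside the gene or within 5 kb (bars) by role, 1 panel for each anti-Flag library, with the number that the 500 genes nearest in length give (diamonds). Cytokines have 3, 1 and 0 genes with a summit in replicates 1, 3 and 4, and MHC class I genes have 0, 3 and 3. The bars include Rela, Ifitm3 and H2-K1, already singled out for their peaks.

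Overlapping peaks of 2 libraries were found at 4 of the 45 members, namely Rela, Socs3, Ifitm3 and H2-K1 (8.89%, against 0.475% of all genes and 0.210 genes for genes of like length). Of these, 3 were the genes already known from earlier results, so Socs3 alone of the other 42 was added, where genes of like length gave 0.202. Replicate 3 took part in all 4 overlaps, with replicate 1 at 3 genes and with replicate 4 at 1 gene, and no overlap remained without it. No region of a member was found in all 3 libraries. Each of the 4 overlaps lay near or beyond the 3′ end of its gene. This position describes the 4 genes alone, since no share of all genes stands beside it. The overlap was 89 to 287 bp long and the summits were 27 to 225 bp apart.

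Over all members, 21 summits lay within 1 kb of a gene end. Of the 19 at genes with a listed strand, 11 were nearest the 3′ end and 8 nearest the 5′ end. Around listed transcription starts there were 7 summits within 1 kb, at Rela, Nfkbia (2), Tnf, Stat3, Ifitm2 and B2m, and 6 of these came from replicate 1. No share of all genes stands beside these positions, which describe the members alone. The 300-base promoter windows of the RefSeq table, from 250 bases before to 50 after a start, were reached by a peak at 3 of the 40 members listed there in replicate 1 (Ifitm2, Nfkbia and Stat3) and at 0 in replicates 3 and 4, beside 0.72%, 0.126% and 0.263% of all 17492 genes listed. The members without an entry are Relb, Nfkb1, Nfkbiz, Ikbkb and Ccl2.

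**Figure D4:**
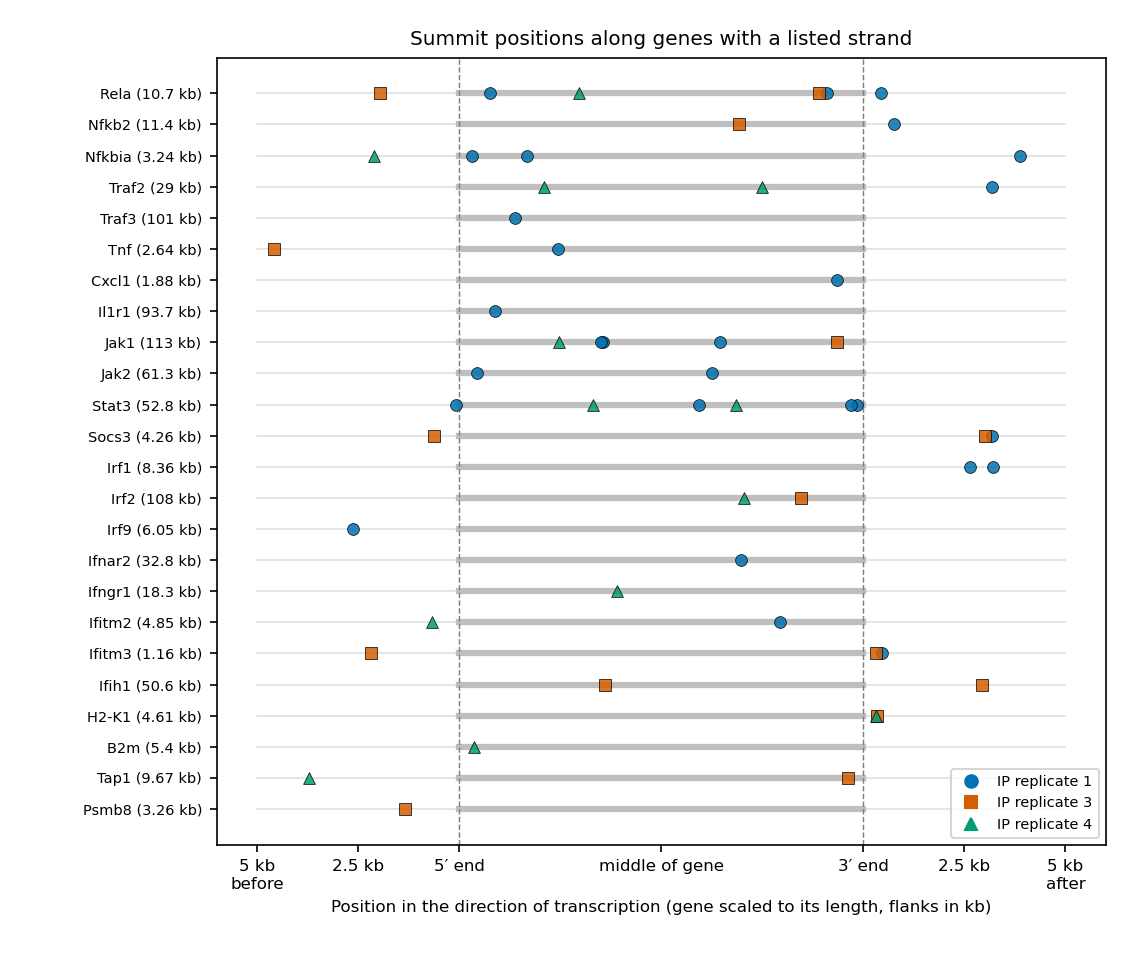
Position of each summit along its gene in the direction of transcription, for the members with a summit and a listed strand (vertical axis, gene length in brackets). The gene is scaled to its length and the flanks are in kb (horizontal axis), and colour and shape give the library. Symbols of 2 libraries meet near the 3′ end of Rela and beyond the 3′ ends of Socs3, Ifitm3 and H2-K1.

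The promoters of the 6 members with a summit within 1 kb of a listed start are shown from RefSeq (GRCm38.p6), 5′ to 3′ on the strand of the gene, since these are the starts that the peaks come near. Capitals mark matches, on either strand, to 4 patterns. The κB-like pattern is GGG and CC with any 5 bases between them, and the ISRE-like pattern (the element bound by IRFs) is GAAA repeated after any 2 bases. The GAS-like pattern (bound by STATs) is TTC and GAA with any 3 bases between them, and the AP-1-like pattern is TGA and TCA with any 1 base between them. The peaks of replicate 1 reach into the windows of Ifitm2, Nfkbia and Stat3 by 52, 88 and 194 bases. No peak reaches the windows of Rela, Tnf and B2m, where the summits lie 706, 648 and 198 bases after the start.
Rela promoter, chr19:5637291-5637590, plus strand: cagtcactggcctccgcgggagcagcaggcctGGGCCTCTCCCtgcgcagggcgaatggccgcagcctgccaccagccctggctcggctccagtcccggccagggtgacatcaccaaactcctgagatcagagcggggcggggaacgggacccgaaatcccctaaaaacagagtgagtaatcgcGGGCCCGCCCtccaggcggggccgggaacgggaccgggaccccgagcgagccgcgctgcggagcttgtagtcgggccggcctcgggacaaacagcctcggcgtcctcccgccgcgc
Nfkbia promoter, chr12:55492598-55492897, minus strand: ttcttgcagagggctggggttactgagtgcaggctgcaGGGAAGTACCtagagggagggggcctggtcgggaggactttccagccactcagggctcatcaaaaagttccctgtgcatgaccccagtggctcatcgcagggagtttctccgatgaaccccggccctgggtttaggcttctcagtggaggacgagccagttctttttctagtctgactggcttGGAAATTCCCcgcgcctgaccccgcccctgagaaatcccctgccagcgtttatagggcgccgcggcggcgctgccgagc
Tnf promoter, chr17:35201958-35202257, minus strand: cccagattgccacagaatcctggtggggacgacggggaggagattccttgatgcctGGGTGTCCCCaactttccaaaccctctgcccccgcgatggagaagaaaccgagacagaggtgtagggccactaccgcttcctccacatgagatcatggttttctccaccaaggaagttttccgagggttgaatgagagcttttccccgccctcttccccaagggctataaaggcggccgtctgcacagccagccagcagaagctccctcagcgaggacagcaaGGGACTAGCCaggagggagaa
Stat3 promoter, chr11:100939491-100939790, minus strand: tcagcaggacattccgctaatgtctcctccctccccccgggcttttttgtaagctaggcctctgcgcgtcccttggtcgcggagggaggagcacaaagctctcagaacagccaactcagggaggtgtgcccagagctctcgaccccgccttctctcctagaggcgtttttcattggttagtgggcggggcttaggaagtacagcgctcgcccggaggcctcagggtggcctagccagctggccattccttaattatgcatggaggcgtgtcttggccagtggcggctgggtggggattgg
Ifitm2 promoter, chr7:140955912-140956211, minus strand: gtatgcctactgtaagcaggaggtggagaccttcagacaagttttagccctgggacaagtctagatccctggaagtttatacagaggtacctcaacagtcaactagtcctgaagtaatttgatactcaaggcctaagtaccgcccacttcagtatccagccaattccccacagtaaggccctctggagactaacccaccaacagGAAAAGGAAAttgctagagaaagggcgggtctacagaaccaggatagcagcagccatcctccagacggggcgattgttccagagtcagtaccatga
B2m promoter, chr2:122147437-122147736, plus strand: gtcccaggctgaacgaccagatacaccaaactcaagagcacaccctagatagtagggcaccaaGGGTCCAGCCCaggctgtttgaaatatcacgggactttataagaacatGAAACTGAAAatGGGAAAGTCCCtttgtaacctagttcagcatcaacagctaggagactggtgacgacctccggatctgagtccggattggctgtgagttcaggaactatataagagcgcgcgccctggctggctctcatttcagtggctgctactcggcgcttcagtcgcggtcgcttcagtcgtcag

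A κB-like match was present in the promoters of Tnf, B2m, Nfkbia and Rela and absent from those of Ifitm2 and Stat3. In B2m the ISRE-like match begins 139 bases before the start and a κB-like match begins 127 bases before it, so that the pair stand side by side. Ifitm2 has 1 ISRE-like match, 46 bases before the start. No pattern matched in the Stat3 window, which the peak of replicate 1 overlaps most. κB-like matches on both strands can overlap, as at Tnf and Rela. This pattern is loose and was found in 57.0% of all 21263 promoters of protein-coding genes in the table, and in 78.3% of the 46 promoters of the 40 members. The ISRE-like pattern was in 15.2% of member promoters and 3.35% of all, the GAS-like in 21.7% and 7.69%, and the AP-1-like in 8.7% and 6.99%. Member promoters were richer in G and C, with a median of 59.8% against 56.3%. A match is a run of letters and does not show that a factor binds there.

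The other genes of the same pathways were counted in the same way. This list of 102 genes was drawn up from textbook roles, and 100 were found as protein-coding genes. A summit inside the gene or within 5 kb was found for 35, 12 and 27 of them in replicates 1, 3 and 4, where genes of like length gave 22.8, 13.4 and 20.4. In replicate 3 the count was thus below that of genes of like length. At gene ends there were 11, 2 and 6 of 100, beside 3.99, 1.38 and 2.09, and overlapping peaks of 2 libraries were found at 0 of the 100, where genes of like length gave 0.412. Beside these, the 42 members other than Rela, Ifitm3 and H2-K1 had 17, 8 and 12 genes with a summit where genes of like length gave 9.79, 5.96 and 8.67. At gene ends these 42 had 8, 2 and 2, where genes of like length gave 1.60, 0.590 and 0.868. In replicate 4 the excess within 5 kb is close to that of the other pathway genes, and the excess at gene ends is below it. In replicates 1 and 3 the members stood higher than the other pathway genes on both counts, relative to genes of like length. The difference between the members and these genes was not tested.

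By list, the other NF-κB signalling genes had 11, 4 and 7 of 25 with a summit (6.49, 3.88 and 6.01 for genes of like length). Irak2, a kinase of interleukin-1 and Toll-like receptor signalling, had 1 in each library and is 56.6 kb long. That is 1 of 25 with a summit in all 3 libraries (4.0%, against 4.4% of all genes), where genes of like length gave 0.518. Other JAK-STAT genes had 7, 3 and 4 of 13 (3.72, 2.45 and 3.63). Other antigen presentation genes had 3, 2 and 5 of 15 (2.82, 1.59 and 2.35). Among them Nlrc5, the transactivator of class I genes, is 92.9 kb long and had 1, 2 and 2 summits. It was the only 1 of 15 with a summit in all 3 libraries (6.67%, against 4.4% of all genes), where genes of like length gave 0.198. Other cytokines and receptors had 7, 0 and 4 of 20 (4.33, 2.54 and 3.86), and other interferon response genes 7, 3 and 7 of 27 (5.42, 2.97 and 4.49), with no gene of either list in all 3 libraries. Cytokines and receptors had the most genes with a summit at a gene end in replicate 1, 4 of 20, where genes of like length gave 0.836.

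The 16 members with no summit in any library were Rel, Nfkbib, Nfkbie, Bcl3, Chuk, Traf6, Il6, Il1b, Tnfrsf1a, Il6ra, Stat2, Socs1, Irf3, Irf7, Ifnar1 and H2-D1. Genes of like length gave 26.3 such genes among 45. They ran from 1.73 kb (Socs1) to 43.9 kb (Il6ra), and the nearest summit of any library lay 5.88 kb (Bcl3) to 52.4 kb (Traf6) from the gene, with a median of 12.8 kb. Just inside the 5 kb window, a summit of replicate 3 lay 4.58 kb from Tnf. At gene ends the summit of replicate 1 at Ifitm2 lay just inside, at 1.00 kb, and that of replicate 3 at the 3′ end of Rela just outside, at 1.18 kb. At these depths a site of a few fragments can go undetected, so the lack of a summit does not show that OTUD3 was absent.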

How the data were processed

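Peak lists of 3 anti-Flag ChIP-seq libraries were used, 1 list for each library with no pooling. The tools named in the submitters' processing notes are MACS2 2.1.0, BWA 0.7.12 and fastp 0.19.11, with build mm10. Use of the input as control is not stated in the labels. Each deposited list gives a fold ratio over local background, a −log10 p-value, a −log10 q-value and an integer score, all from the authors' peak caller. These values describe peaks within their own list. Intervals with several summits were reduced to the summit of lowest p. Fragments at a summit (c) and background were solved from the fold, (c + 1)/(background + 1), and the Poisson tail, and for 100.0% of intervals this gave the deposited −log10 p with an error below 0.001.

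Genes are the 21887 protein-coding genes on chromosomes 1 to 19, X and Y of the RefSeq table of GRCm38.p6. A gene counts when a summit lies inside it or within 5 kb, and a gene end when a summit lies within 1 kb of it. The number given by genes of like length is the sum over members of the share among the 500 genes nearest in length. Overlap means at least 1 bp. Starts and strands come from the RefSeq promoter table. The members and lists (the 45 members, 5 lists of other pathway genes and 4 of cell type markers) were chosen with earlier results of these data known, and no set was tested. All members were described. Named with full values were those with summits in all 3 libraries, at a gene end or in overlapping peaks, and of the other genes those with overlapping peaks or, shortest first and up to 3 a list, with summits in all 3 libraries. Of these genes and lists, 1 gene and 1 list of markers are not reported here. Promoters shown are those of named members with a summit within 1 kb of a start, up to 8. Mx1 and Mx2 had no match among protein-coding genes. The counting was tested on simulated data. Python 3.11.15, numpy 2.4.6, pandas 2.3.3 and scipy 1.17.1 were used.

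Alternatives were other windows, whole intervals, a fold of at least 4, a −log10 p of at least 3, all deposited summits, stricter overlap, leaving out each replicate and other numbers of like-length genes. Added after seeing the data were genes of like length in equally gene-rich surroundings and the counts without Rela, Ifitm3 and H2-K1.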

Additional observations from a re-analysis of the deposited data

How the results depend on the processing

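The peaks at members rest on 3 to 9 fragments. At a fold of at least 4, members with a summit fell to 3, 1 and 1 in replicates 1, 3 and 4 (6.67%, 2.22% and 2.22%, against 3.86%, 1.00% and 1.57% of all genes). Those at gene ends fell to 2, 0 and 0 (0.448%, 0.0685% and 0.0594% of all genes), and those in all 3 libraries to 0 (0.00914% of all genes). At a −log10 p of at least 3, 1 member was left in all 3 libraries (2.22%, against 2.42% of all genes). With the gene body alone, replicate 1 had 13 members (28.9%, against 19.5% of all genes). Replicate 3 then had 6 (13.3%, against 12.7%) and replicate 4 had 10 (22.2%, against 19.3%), both close to the share of all genes. Genes of like length were not set beside these counts. With 3 kb at gene ends, replicate 3 had 7 (4.26% of all genes). Without replicates 1, 3 and 4 in turn, 5, 6 and 6 members had a summit in both remaining libraries (11.1%, 13.3% and 13.3%, against 7.31%, 10.3% and 7.38% of all genes). Members with overlapping peaks numbered 2 at 50% reciprocal overlap (4.44%, against 0.233% of all genes). Without replicates 1, 3 and 4 in turn they numbered 1, 0 and 3 (0.0959%, 0.224% and 0.16% of all genes). Without Rela, Ifitm3 and H2-K1, 1 member had summits in all 3 libraries, 1 had overlapping peaks, and 2 had a gene-end summit in replicate 3. The cause of these changes was not tested. In all, 52 recomputed values stayed within 1.5 times the reported ones, among them the numbers given by genes of like length with 200 or 1000 genes and in equally gene-rich surroundings (10.4, 6.07 and 9.09 within 5 kb, and 1.77, 0.686 and 0.938 at gene ends). No paired analysis was possible because the input libraries that share replicate numbers were not analysed here and the results come from no test.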

Other observations

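Genes that mark the cell types of adipose tissue carried summits at rates on both sides of those of genes of like length. For at least 1 library, 4 of 8 adipocyte marker genes had a summit inside the gene or within 5 kb, where genes of like length gave 3.15. These were Fabp4 with 3, 0 and 1 summits in replicates 1, 3 and 4, Cidec with 0, 1 and 2, Pparg with 1, 1 and 0, and Lpl with 0, 0 and 1, while Adipoq, Plin1, Lep and Slc2a4 had none. For macrophage markers it was 3 of 8 (4.16 for genes of like length): Adgre1 had 0, 0 and 1 summits, Cd68 had 1, 1 and 0, Itgam had 1, 0 and 0, and Itgax, Mrc1, Lyz2, Csf1r and Cd163 had none. Stromal and endothelial markers had 4 of 6 (3.56), with 1, 1 and 2 summits at Pdgfra, 0, 0 and 1 at Col1a1, 2, 0 and 0 at Pecam1, 1, 0 and 0 at Cdh5, and none at Dpp4 and Kdr. A peak does not show which cell it came from.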
